A study of Mus musculus with 12 samples.

Results

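Whole kidneys of 2 mouse knockouts were set directly against each other at postnatal day 15 (P15): Pkd1 KO, with 3 libraries, and Cep120 KO, with 3 libraries. These are the 6 libraries whose titles carry hoxpkd1homo or hoxcep120homo and whose genotype labels read Pkd1 KO or Cep120 KO, out of 12 libraries in all. The other 6 are the controls of the lines, 3 hoxpkd1het and 3 hoxcep120het libraries, whose genotype label reads WT. They were used here to show which knockout had moved away from its control and which genes differed between the lines without a knockout. The titles and the design text place both deletions under Hoxb7, which drives recombination in the ureteric bud and the collecting duct that grows out of it, so other kidney cells keep the gene. Sex and strain are not given, and nothing in the labels says that each library is a different animal. The p-values therefore measure the spread between libraries, which may be technical. The stated aim of setting the knockouts side by side was to compare the pathways disturbed in cystic kidneys after loss of Cep120 with those disturbed after loss of a ciliary signalling protein.

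Pkd1 encodes polycystin-1, a large membrane protein of the primary cilium that keeps tubule diameter in check, and its loss causes autosomal dominant polycystic kidney disease. Cep120 encodes a centriole protein needed to build centrioles, and therefore the cilium that grows from one and the centrosomes that organise the mitotic spindle. A cystic kidney holds cyst-lining epithelium of the deleted lineage beside compressed or injured tubules of other origin, interstitial fibroblasts and macrophages. In whole-kidney RNA, fewer cells of a type and less RNA per cell cannot be told apart.

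The deposited values used were estimated gene counts, rounded to whole numbers, with totals of 26838860 to 31216703 per library in Pkd1 KO and 25562853 to 28065418 in Cep120 KO, and levels are given as CPM, the count scaled to a common library total. The proximal phosphate transporter Slc34a1 and uromodulin (Umod), markers of kidney tubules, were at 220 CPM or more in each of the 12 libraries. Several libraries stood apart in ways the groups do not explain. The 3 Pkd1 KO libraries detected 23532 to 24213 genes and the 3 Cep120 KO libraries 31626 to 32705. Controls lay between, with 24297, 25216 and 30979 genes in Pkd1 controls 1 to 3 and with 31603, 30289 and 25652 for the Cep120 line. The libraries labelled Pkd1 control 3 and Cep120 control 3 were closer to the other line: across genes, Pearson's r was 0.985 and 0.982 between Cep120 control 3 and Pkd1 controls 1 and 2, but 0.961 and 0.968 with Cep120 controls 1 and 2, and Pkd1 control 3 had 0.964 with both of its own. Whether these labels were exchanged was not tested, so some of the values that rest on the controls are also given without them. Among the 6 KO libraries the number of genes detected and the genotype cannot be told apart, and a term for it in the fit is set by the controls alone. Its values are given below where it changed a result. Xist, which coats and silences an X chromosome, reached 184 CPM in Cep120 KO 3 and at most 0.33 CPM in the other 5 KO libraries, and was at 50 to 141 CPM in all 6 controls. Summed Y-linked RNA was at 135 to 147 CPM in Pkd1 KO and 0.0651 CPM or less in 3 of the controls. Cep120 KO 3, Pkd1 control 3 and Cep120 controls 1 and 2 held both, with 12 to 97 CPM of Y-linked RNA. The net difference and the changes against controls therefore also carry this difference. With a term for Xist the fit called 8247 genes between the knockouts, and without Cep120 KO 3 it called 8216. Xist presence varied only within Cep120 KO, so Cep120 KO 3 against the others of its group set that term. It cannot separate this difference from the changes against controls. The summed level of the adrenal marker list was 931 CPM in Pkd1 KO 3 against 1.96 to 6.74 CPM in the other 11 libraries.

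Pkd1 KO and Cep120 KO kidneys differed at 9890 of 19890 genes tested, 49.7% of them (edgeR quasi-likelihood test, Benjamini-Hochberg adjusted p under 0.05). In Pkd1 KO 4640 genes (23.3%) were higher and 5250 (26.4%) were lower than in Cep120 KO. A fitted difference of at least 2-fold was present at 1922 of the higher and 3575 of the lower genes. Over all genes tested the median log2 difference was -0.04 and the median standard error 0.22. The 3 Pkd1 KO values did not overlap the 3 Cep120 KO values at 12521 genes (63% of those tested). At 8440 genes (42.4%) the 95% interval of the difference lay within 2-fold in either direction. Protein-coding genes made up 7824 of the calls, 4221 higher and 3603 lower. Genes that were neither protein-coding nor pseudogenes made up 1518, of which 1297 (85.4%) were lower. With the term for the number of genes detected, 7127 genes were called, 3652 higher and 3475 lower. Since this many genes were called, the count of called members in a group of genes is read below against these shares. An absence of overlap at a gene is likewise read against the 63%.

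Between the controls of the lines 0 genes were called by the same edgeR test, with 834 genes at an unadjusted p under 0.05 and 0 genes by DESeq2 and by limma voom. Without Pkd1 control 3 and Cep120 control 3, 416 genes (2.09%) were called between the controls, 103 higher and 313 lower in the Pkd1 line. Of these, 173 were also called in the same direction between the knockouts, which is 1.75% of the knockout calls and 41.6% of the control calls. The difference between the knockouts beyond the difference between their controls, tested as an interaction term, was called at 5598 genes (28.1%), 2764 in the higher direction (13.9%) and 2834 in the lower (14.2%). Without both replicate 3 controls the interaction was called at 6149 genes (30.9%). Below, the net difference means the interaction value with all libraries.

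The libraries showed which side had moved. The Pkd1 KO libraries lay above every control library, with Cep120 KO among the controls, at 1564 genes (7.86%), and below every control library at 1477 genes (7.43%). The reverse pattern, with Cep120 KO beyond all 6 controls and Pkd1 KO among them, was present at 168 genes above (0.845%) and 51 genes below (0.256%). Both knockouts lay above all controls at 111 genes (0.558%) and below them at 84 (0.422%), and they lay on opposite sides of the controls at 135 genes (0.679%) with Pkd1 KO above and 121 (0.608%) with Pkd1 KO below. By edgeR, Pkd1 KO against its own controls called 8839 genes (44.4%), and Cep120 KO against its own controls called 0 genes, with 1201 at an unadjusted p under 0.05. These comparisons with controls share their KO libraries with the direct comparison, so their values are given beside it and not as separate support. A gene past the threshold in one knockout and not in the other is not shown to differ between them by that alone.

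**Figure D1:**
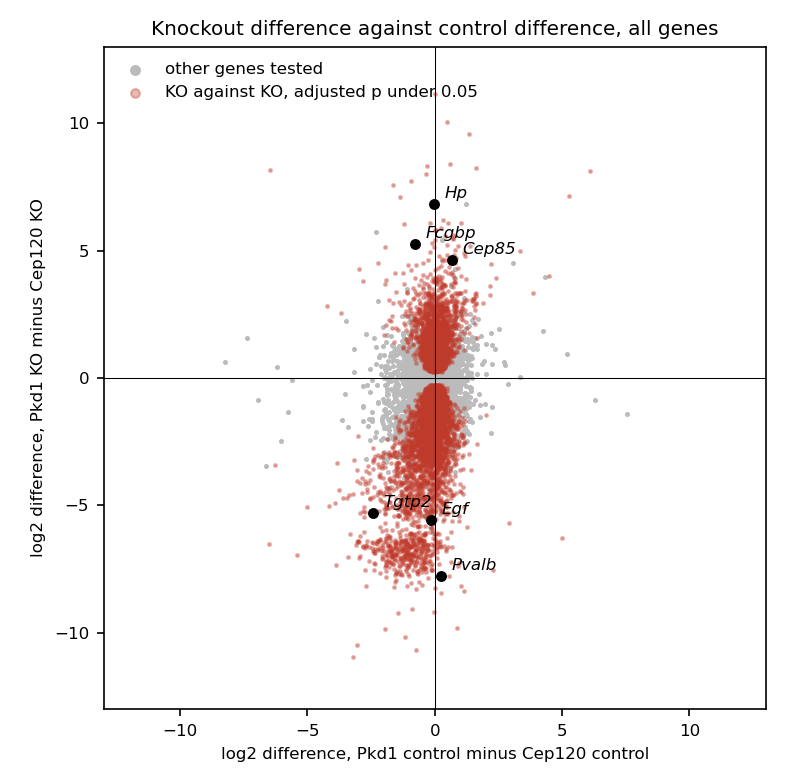
Log2 difference between the Pkd1 KO and Cep120 KO libraries (vertical axis) against the log2 difference between the controls of the 2 lines (horizontal axis), 1 point for each of the 19890 genes tested, with genes called between the knockouts in colour. The called genes spread far more along the vertical than the horizontal axis, and a separate group of low-level genes lies near -7.

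Neither deleted gene could be used to check the labels, because counts summed over a whole gene also hold RNA from undeleted cells and from exons that remain. Cep120 was at 28, 27.9 and 23.4 CPM in Pkd1 KO 1 to 3 and at 16.6, 20.4 and 16.6 CPM in Cep120 KO. The Pkd1 KO libraries were higher without overlap, by a log2 difference of 0.56 (SE 0.161, adjusted p = 0.0118, edgeR), but the Cep120 controls were as low as the Cep120 KO, at 13.7 to 18.7 CPM. Without Cep120 KO 3 the difference was 0.50 and was not called. Pkd1 was at 36.4, 26.2 and 23.9 CPM in Pkd1 KO and at 22.2, 26.3 and 21.1 CPM in Cep120 KO, which overlapped (log2 difference 0.31, adjusted p = 0.207).

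The 12 largest rises in Pkd1 KO were taken among called genes with a mean log2 CPM of 1 or more and no overlap between the knockouts, with clone-named genes and pseudogenes left out, so larger differences exist at lower levels. Hp, the haemoglobin scavenger haptoglobin, was at 779, 34.1 and 451 CPM in Pkd1 KO 1 to 3 and at 2.65, 4.23 and 4.26 CPM in Cep120 KO. Its Pkd1 KO libraries differed widely among themselves, yet all 3 lay above every Cep120 KO library (log2 difference 6.82, SE 0.899, adjusted p = 7.41e-05). Fcgbp, a mucus-associated protein, was at 115, 93.2 and 89.7 CPM against 2.77, 1.66 and 3.37 CPM (5.26, SE 0.301, adjusted p = 2.94e-07). Il18r1, a receptor chain for interleukin-18, was at 97.7, 83.5 and 81.9 CPM against 1.08, 3.03 and 1.28 CPM (5.59, SE 0.327, adjusted p = 3.01e-07). Both were tight within Pkd1 KO, more spread at the low levels of Cep120 KO and far apart between the knockouts. Actg2, smooth muscle gamma actin, was at 589, 435 and 288 CPM against 4.88, 20.8 and 9.02 CPM, and Msln, the mesothelial and epithelial surface protein mesothelin, at 297, 268 and 271 CPM against 5, 19.3 and 8.02 CPM. Cep120 KO 2 was the highest Cep120 KO library for Actg2, Msln, Il18r1 and Col12a1.

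The others among the 12 largest rises were Adh7 (6.20), a retinol and alcohol dehydrogenase, Star (5.44), which brings cholesterol into mitochondria for steroid synthesis, Ahnak2 (4.85), the fibril-associated collagen Col12a1 (4.70), Cep85 (4.62), Igfbp6 (4.6), which binds insulin-like growth factors, and the keratin Krt20 (4.50). Cep85, a centrosomal protein, was at 582, 464 and 409 CPM in Pkd1 KO, 19.4, 21.6 and 18.1 CPM in Cep120 KO, 75.7, 74.9 and 30.8 CPM in Pkd1 controls and 23.5, 19.8 and 69.6 CPM in Cep120 controls. Without both replicate 3 controls Cep85 was called between the controls (1.80, adjusted p = 0.000374, edgeR), and its interaction value was 2.82 (adjusted p = 1.06e-05). The rise of Star rested on 1 library: it was at 3.12 and 2.64 CPM in Pkd1 KO 1 and 2 and at 269 CPM in Pkd1 KO 3, the library with the adrenal markers. Without that library its difference was 0.43 and was not called. By the net difference 11 of these 12 genes were called, with Star at an adjusted p of 0.0526, and 28.1% of all genes tested were called. The net difference contains the difference on which the 12 were chosen, so their count is no result.

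By the same rule, 2 of the 12 largest falls were below -6, and more genes fell that far at lower levels. Pvalb, the calcium buffer parvalbumin of the distal convoluted tubule, was at 0.372, 0.258 and 0 CPM in Pkd1 KO and at 39.5, 35.4 and 70.3 CPM in Cep120 KO. Controls lay with Cep120 KO, at 38.7 to 71.1 CPM in the Pkd1 line and 36.7 to 65 CPM in the Cep120 line, and the log2 difference between the knockouts was -7.79 (SE 0.556, adjusted p = 1.02e-06). Slc34a3, a phosphate transporter of the proximal tubule, was at 0.474, 0.612 and 0.359 CPM against 38.6, 39.7 and 43.2 CPM (-6.37, SE 0.338, adjusted p = 2.03e-07). Egf, the growth factor made by distal tubules, was at 7.31, 9.99 and 5.74 CPM against 542, 157 and 394 CPM (-5.57, SE 0.433, adjusted p = 1.72e-06). In the GENCODE mouse annotation another gene overlaps Egf, Adh7 and Slc51a, and where counting ignored the strand such pairs cannot be told apart.

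Of the other 9, 3 were organic ion transporters of the Slc22 family, Slc22a7 (-5.34), Slc22a30 (-5.07) and Slc22a22 (-4.86), of which the last 2 have close relatives that may share reads. Tgtp2, an interferon-induced GTPase with a near-identical neighbour, was at 3.45, 3.54 and 7.68 CPM in Pkd1 KO and at 494, 14.4 and 69.5 CPM in Cep120 KO. Its control libraries varied as widely, at 356, 273 and 23.7 CPM in the Cep120 line and 25.2, 26.3 and 70.9 CPM in the Pkd1 line, and its net difference was not called (-2.89, adjusted p = 0.164). Its difference between the knockouts was -5.30, and -2.71 and not called with the term for the number of genes detected. Ldc1 (-5.10), the nicotinic receptor subunit gene Chrna4 (-4.88), Aspdh (-4.78), the bile acid and steroid carrier subunit Slc51a (-4.78) and the vitamin K-dependent plasma protein gene Proz (-4.69) made up the rest. By the net difference 11 of the 12 were called, Tgtp2 being the exception. As for the rises, this count follows largely from how the genes were chosen.

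**Figure D2:**
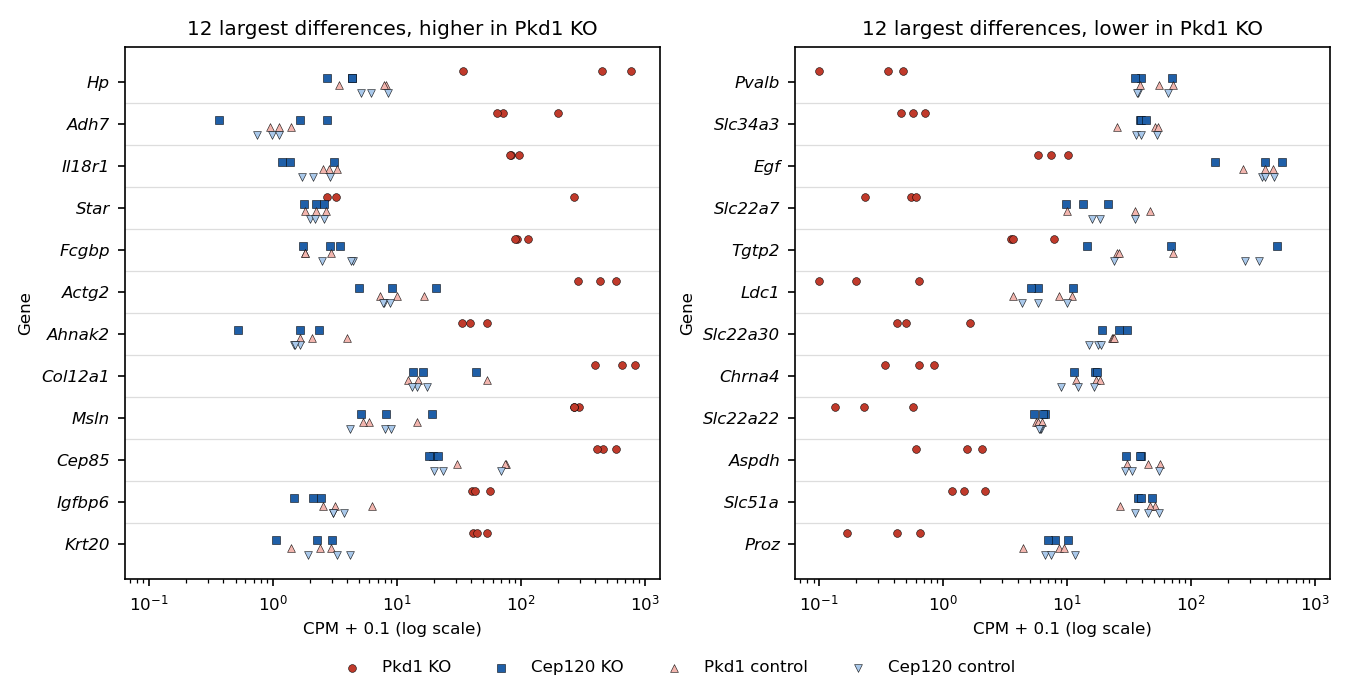
Level as CPM plus 0.1 on a log axis of the 12 genes with the largest rise (left) and the 12 with the largest fall (right) in Pkd1 KO against Cep120 KO, with 1 point for each of the 12 libraries, coloured by group. The Pkd1 KO points lie apart from the Cep120 KO points at every gene shown, as the choice of genes requires, and for Star a single Pkd1 KO library, at 269 CPM, carries the difference.

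Genes of the nephron's tubules were lower in Pkd1 KO than in Cep120 KO, and those of the proximal tubule nearly without exception. The proximal tubule reabsorbs most filtered solute, and 23 of its 24 listed genes were lower and 1 higher, with a median log2 difference of -2.15 (all genes, -0.04). Slc34a1 was at 220, 323 and 302 CPM in Pkd1 KO and at 3711, 3125 and 2821 CPM in Cep120 KO (-3.51, SE 0.249, adjusted p = 9.79e-07). The glucose transporter Slc5a2 was at 16.2, 20 and 25.4 CPM against 514, 454 and 593 CPM (-4.66), and the endocytic receptor megalin, Lrp2, at 62, 83.3 and 88 CPM against 440, 457 and 498 CPM (-2.58, SE 0.189, adjusted p = 1.22e-06). No library of one knockout reached the range of the other for these 3 genes, as was so for 63% of all genes tested. Miox (-4.34), which breaks down inositol, and Gatm (-3.99), the first enzyme of creatine synthesis, followed the same pattern. The exception was the fatty acid hydroxylase gene Cyp4b1, at 65.4, 78.9 and 61.5 CPM against 38.4, 18.8 and 18 CPM (1.45). The net difference was called lower for 22 genes and higher for 1 (median -2.01), the median was 0.00 between the controls, -2.15 for Pkd1 KO and -0.07 for Cep120 KO against their own controls.

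The loop of Henle and the distal convoluted tubule, which reclaim salt, calcium and magnesium, were lower in Pkd1 KO at most of their genes. Of 14 genes of the thin and thick limb 12 were lower and none higher (median -1.32). Slc12a1, the loop's salt cotransporter, was at 148, 228 and 216 CPM in Pkd1 KO and at 801, 616 and 858 CPM in Cep120 KO (-1.94, adjusted p = 2.19e-05), and Umod was at 566, 964 and 597 CPM against 1865, 1366 and 1715 CPM (-1.22, SE 0.219, adjusted p = 0.000697). The claudins Cldn16 (0.18) and Cldn19 (0.40), tight junction proteins that let magnesium and calcium through in the thick limb, did not pass the test. Of 13 distal convoluted tubule genes 11 were lower and none higher (median -1.68). The thiazide-sensitive cotransporter Slc12a3 was at 39, 48.2 and 43.8 CPM in Pkd1 KO against 313, 279 and 294 CPM in Cep120 KO, with controls at 216 to 274 CPM (-2.76, SE 0.125, adjusted p = 1.03e-07). Klotho, Kl, the coreceptor for the phosphate hormone FGF23, was at 14.9, 17.2 and 15.5 CPM against 158, 160 and 202 CPM (-3.45, SE 0.188, adjusted p = 2.25e-07). The calcium and magnesium channels Trpv5 (-0.06) and Trpm6 (0.47) of the same segment did not pass the test.

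In the collecting duct, the lineage in which both genes were deleted, principal cell genes were higher in Pkd1 KO and genes of intercalated cells were mixed. Principal cells reabsorb water and sodium under vasopressin and aldosterone. Of 16 principal cell genes 13 were higher and 1 lower (median 1.70), and the median of the net difference was 1.73 with 13 higher and 1 lower. Scnn1b, a subunit of the epithelial sodium channel, was at 346, 334 and 308 CPM in Pkd1 KO and at 77.8, 68.9 and 67.7 CPM in Cep120 KO (2.20, SE 0.108, adjusted p = 1.18e-07). Its controls lay at 67.3 to 91.3 CPM, so the Pkd1 KO libraries alone stood apart. The channel's alpha subunit, Scnn1a, was at 300, 277 and 235 CPM against 53.6, 27.9 and 35.2 CPM (2.80, SE 0.228, adjusted p = 2.3e-06). The vasopressin receptor Avpr2 was at 84.7, 89.5 and 141 CPM against 37.2, 38.8 and 29 CPM (1.59, SE 0.191, adjusted p = 3.76e-05). Aqp2, the vasopressin-regulated water channel, was at 572, 1404 and 1749 CPM against 255, 183 and 74.6 CPM (2.86, SE 0.658, adjusted p = 0.00358) and varied from 41.8 to 357 CPM in the Pkd1 controls. The transcription factor gene Gata3 was higher as well, at 173, 159 and 198 CPM against 46.4, 62.8 and 50 CPM (1.74). Tfap2b, a transcription factor gene of the distal nephron and collecting duct, was lower, at 30.7, 40.5 and 36.5 CPM against 76.7, 76.3 and 89 CPM (-1.17, SE 0.119, adjusted p = 1.06e-05), and Hsd11b2 (-0.21), the enzyme that protects the aldosterone receptor from cortisol-like hormones, and Gata2 (-0.03) did not pass.

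Intercalated cells secrete acid or bicarbonate. Of their 16 genes 8 were lower in Pkd1 KO, 3 higher and 5 not called (median -0.73, and -1.19 with the term for the number of genes detected). The bicarbonate exchanger pendrin, Slc26a4, was at 1.05, 2.03 and 1.47 CPM in Pkd1 KO and at 28.2, 14.5 and 23.3 CPM in Cep120 KO (-3.85, SE 0.378, adjusted p = 8.28e-06). The anion exchanger Slc4a1, which red blood cells also make, was at 2.91, 2.80 and 2.91 CPM against 27.6, 13.3 and 24.9 CPM (-2.93). Foxi1, the transcription factor that specifies these cells, went the other way, at 71.9, 79.7 and 93.2 CPM against 41.5, 33.9 and 37.2 CPM (1.12, SE 0.171, adjusted p = 0.000214), as did the ammonia channel Rhcg (1.18) and the receptor Kit (0.80). The red blood cell genes were lower in the same libraries (median -2.88), and their part in the value of Slc4a1 was not tested.

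Genes of the embryonic ureteric bud were higher in Pkd1 KO at 9 of 15 tested, lower at 1, with 5 not called (median 0.88). Wnt7b, the ligand that the ureteric stalk sends to the medulla, was at 32.7, 32.5 and 36.5 CPM in Pkd1 KO and at 5.92, 8.14 and 8.52 CPM in Cep120 KO (2.17, SE 0.168). Wnt9b, the stalk ligand that induces nephrons, was at 24.5, 20.2 and 31.4 CPM against 3.58, 6.18 and 5.47 CPM (2.32). The tip genes Wnt11 (-0.12) and Ret, a receptor for Gdnf (0.89, adjusted p = 0.0855), did not pass the test, and Ret was at 0.948, 0.805 and 0.969 CPM against 0.731, 0.423 and 0.319 CPM. Of 11 urothelial genes, which would come from the renal pelvis, 2 were higher, 1 lower and 8 not called (median -0.10). Averaged over these genes, log2 levels relative to the 6 KO libraries were 1.25, -0.76 and -0.94 in Pkd1 KO 1 to 3. In Cep120 KO they were -0.36, 0.58 and 0.23. By this average Pkd1 KO 1 lay above Cep120 KO, and Pkd1 KO 2 and 3 lay below it. The summed level of the urothelial genes was 1206, 914 and 942 CPM in Pkd1 KO and 339, 479 and 424 CPM in Cep120 KO. The part of the pelvis in the collecting duct and ureteric bud differences was not tested.

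Podocytes and the nephron progenitors showed no common direction. Of 12 podocyte genes 3 were higher, 5 lower and 4 not called (median -0.02). Nephrin, Nphs1, the slit diaphragm protein, was at 17.6, 18 and 16.5 CPM in Pkd1 KO and at 13.7, 14.9 and 16.9 CPM in Cep120 KO, a log2 difference of 0.19 that did not pass the test. Of 11 progenitor and early nephron genes tested 6 were higher and 5 lower (median 0.41). Osr1 (2.75) and Wnt4 (1.95), the latter a nephron-inducing ligand, were higher, and the progenitor factors Cited1 (-2.29) and Eya1 (-2.17) were lower.

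**Figure D3:**
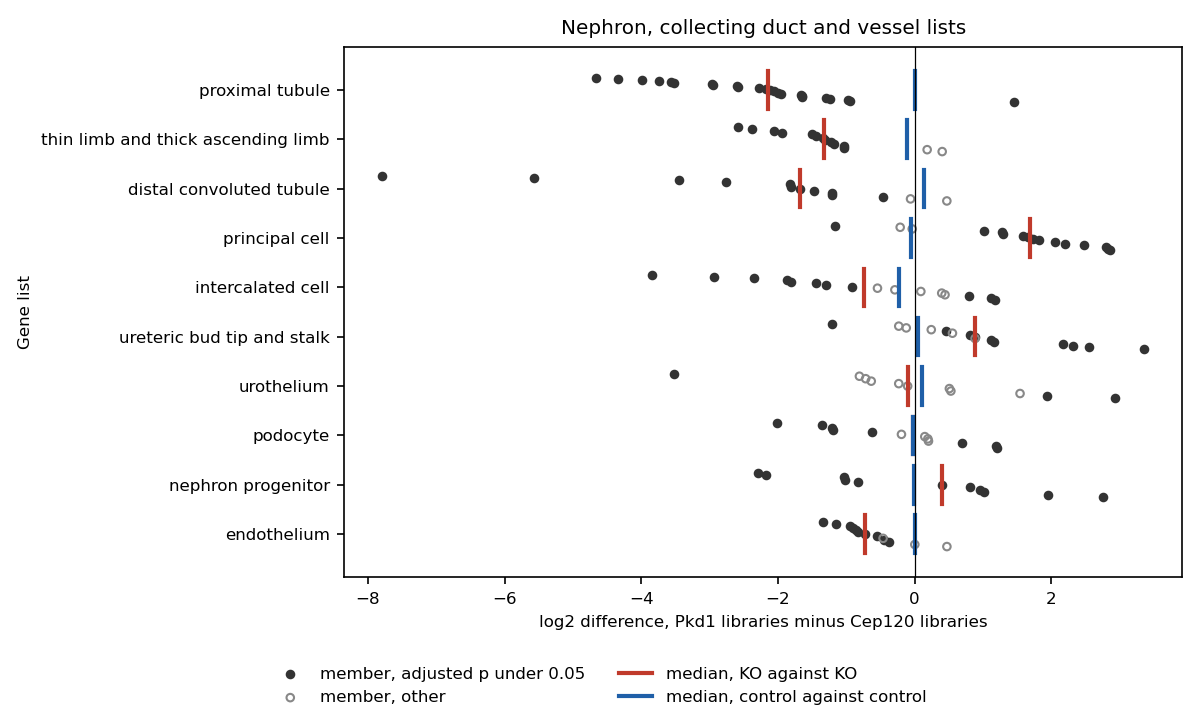
Log2 difference between Pkd1 KO and Cep120 KO for each tested gene of the tubule, collecting duct, ureteric bud, urothelium, podocyte, progenitor and endothelium lists (points, filled where called), with the list's median between the knockouts as a red bar and between the controls as a blue bar. The proximal tubule, limb and distal convoluted tubule genes lie below 0 with medians of -2.15, -1.32 and -1.68, and the principal cell genes mostly above 0 with a median of 1.70.

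Markers of tubular injury were higher in Pkd1 KO than in Cep120 KO at 16 of 18 genes and lower at none (median 1.27, and 2.17 with the term for the number of genes detected). Lcn2, the iron-binding protein shed by injured tubules, was at 1082, 959 and 854 CPM in Pkd1 KO and at 15.5, 97.7 and 28.9 CPM in Cep120 KO. Its controls lay at 17.7 to 84.7 CPM, and the log2 difference between the knockouts was 4.35 (SE 0.71, adjusted p = 0.000358). Krt20 was at 41.2, 53 and 44.1 CPM against 2.19, 2.93 and 0.958 CPM (4.50, SE 0.388, adjusted p = 3.45e-06). Neither gene overlapped between the knockouts, and nor did 63% of all genes tested. Secreted osteopontin, Spp1, was high everywhere, at 8747, 10700 and 10370 CPM against 3584, 6480 and 2631 CPM (1.23, adjusted p = 0.00609). Havcr1, a marker of acute proximal tubule damage, was at 4.43, 7.41 and 22.6 CPM against 2.54, 12.7 and 0.248 CPM, which overlapped (1.14, adjusted p = 0.444). Vcam1, the adhesion molecule of unrepaired proximal tubule, was at 55.9, 64.8 and 38.3 CPM against 48.7, 108 and 48.2 CPM (-0.37, adjusted p = 0.451). The net difference was called higher for 10 of the 18 (median 1.18).

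Immediate early transcription factors, which answer growth factor and stress signals within minutes, were higher in Pkd1 KO at all 14 genes tested (median 1.80). Fos was at 17.7, 14.3 and 49.5 CPM in Pkd1 KO and at 2.04, 4.85 and 1.88 CPM in Cep120 KO (3.21, SE 0.598, adjusted p = 0.000917). Junb was at 20.8, 24.6 and 34.3 CPM against 3.65, 4.72 and 1.99 CPM (2.94), and Egr1 differed by 2.74. Pkd1 KO 3 was the highest library for Fos and Junb, and the groups did not overlap, as at 63% of all genes tested.

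Genes of the interstitium that build matrix were higher in Pkd1 KO than in Cep120 KO. Of 24 matrix genes 20 were higher and none lower (median 1.44), and of 14 myofibroblast and pericyte genes 12 were higher and none lower (median 1.82). The collagen gene Col1a1 was at 2236, 1710 and 1278 CPM in Pkd1 KO and at 392, 804 and 353 CPM in Cep120 KO (1.75, SE 0.372, adjusted p = 0.00217), with controls at 203 to 667 CPM. All 3 Pkd1 KO libraries lay above the other 9, and the net difference for Col1a1 was 1.06 and not called (adjusted p = 0.137). Lox, which crosslinks collagen and elastin, was at 170, 122 and 106 CPM against 18, 20.3 and 16.3 CPM (2.87, SE 0.203). Col12a1 was at 844, 659 and 399 CPM against 16.3, 43.6 and 13.4 CPM (4.70, SE 0.612, adjusted p = 6.87e-05). The net difference was called higher for 12 of the 24 matrix genes, with a median of 1.03, and the median between the controls was 0.41.

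Within the myofibroblast and pericyte list the contractile genes had larger log2 differences than the receptors of pericytes and fibroblasts. Cnn1, calponin, was at 268, 227 and 194 CPM in Pkd1 KO and at 11.3, 26.4 and 17.1 CPM in Cep120 KO (3.65, SE 0.282, adjusted p = 1.65e-06). Tagln was at 1611, 1482 and 964 CPM against 77.9, 248 and 105 CPM (3.23), and Acta2, smooth muscle alpha actin, at 1998, 1870 and 1456 CPM against 155, 483 and 208 CPM (2.65). Cep120 KO 2 was the highest Cep120 KO library for all 3 genes and still far below Pkd1 KO. The platelet-derived growth factor receptor genes Pdgfra, at 82, 92.9 and 107 CPM against 63.8, 66.8 and 60.2 CPM (0.56, adjusted p = 0.0232), and Pdgfrb, at 107, 96.7 and 87.9 CPM against 79, 83.7 and 68.8 CPM (0.33, adjusted p = 0.0654), differed far less. The summed urothelial level given above was higher in the same 3 libraries, but the average over the urothelial genes was higher in Pkd1 KO 1 alone. The part of the renal pelvis, whose smooth muscle also makes the contractile proteins, was not tested.

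Macrophage genes were higher in Pkd1 KO at 17 of 18 genes and lower at none (median 2.39, and 3.71 with the term for the number of genes detected). Cd68, a lysosomal protein of macrophages, was at 88.6, 82.3 and 67.9 CPM in Pkd1 KO and at 13.3, 19.2 and 8.13 CPM in Cep120 KO (2.55, SE 0.406, adjusted p = 0.000297). Its controls ranged from 6.42 to 20.3 CPM in the Pkd1 line and 8.60 to 14.7 CPM in the Cep120 line, so Cep120 KO lay among them. Adgre1, the F4/80 antigen, was at 49.1, 48.2 and 39.7 CPM against 17.2, 18.4 and 10.7 CPM (1.56, adjusted p = 0.0183). Mertk (-0.37), a receptor for dying cells, did not pass the test. The receptor Csf1r, on which macrophages depend, was at 146, 140 and 109 CPM against 55.5, 57.9 and 41.2 CPM (1.35), and both of its ligands were higher: Il34 at 152, 195 and 112 CPM against 22, 42.2 and 17.8 CPM (2.48, SE 0.424, adjusted p = 0.000487) and Csf1 at 40.8, 35 and 35.6 CPM against 12, 16.7 and 7.81 CPM (1.61). Receptor and ligands were thus higher in the same 3 libraries. The summed macrophage level was 1626 to 2399 CPM in Pkd1 KO, 290 to 522 CPM in Cep120 KO and 211 to 625 CPM in the controls, and replicate 3 of each line's controls again lay nearer the other line. Without these controls the median between the controls was -1.22. With them, the net difference was called higher for 12 of the 18 genes (median 2.44).

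Other immune lists were mixed. Of 14 T and B cell genes 1 was higher, 7 lower and 6 not called (median -1.96), most of them at low levels. Cd3e, a chain of the T cell receptor complex, was at 0.102, 0.0644 and 0.251 CPM in Pkd1 KO and at 2.54, 1.14 and 0.603 CPM in Cep120 KO (-3.33, adjusted p = 0.00714), with 0.488 to 3.78 CPM in the controls, and its net difference was not called (-1.80, adjusted p = 0.237). The summed T and B cell level overlapped between the knockouts, at 21.5 to 22.2 CPM against 17.5 to 35.7 CPM. Of 18 chemokine, cytokine and complement genes 6 were higher, 1 lower and 11 not called (median 1.47). With the term for the number of genes detected 14 were higher and the median was 3.52. The complement gene C4b (3.38) was higher, while C3 was at 255, 233 and 147 CPM against 26.7, 94.8 and 9.02 CPM and did not pass (2.28, adjusted p = 0.069). Ccl2, which recruits monocytes, was at 11.6, 11.5 and 17.9 CPM against 7.27, 26.2 and 2.98 CPM (0.17, adjusted p = 0.882). Of 15 interferon stimulated genes 4 were lower, none higher and 11 not called (median -0.64). The term for the number of genes detected took the median of the list to 0.11, and without Cep120 KO 1 it was 0.09. Of 7 neutrophil genes tested 1 was lower and 6 were not called.

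**Figure D4:**
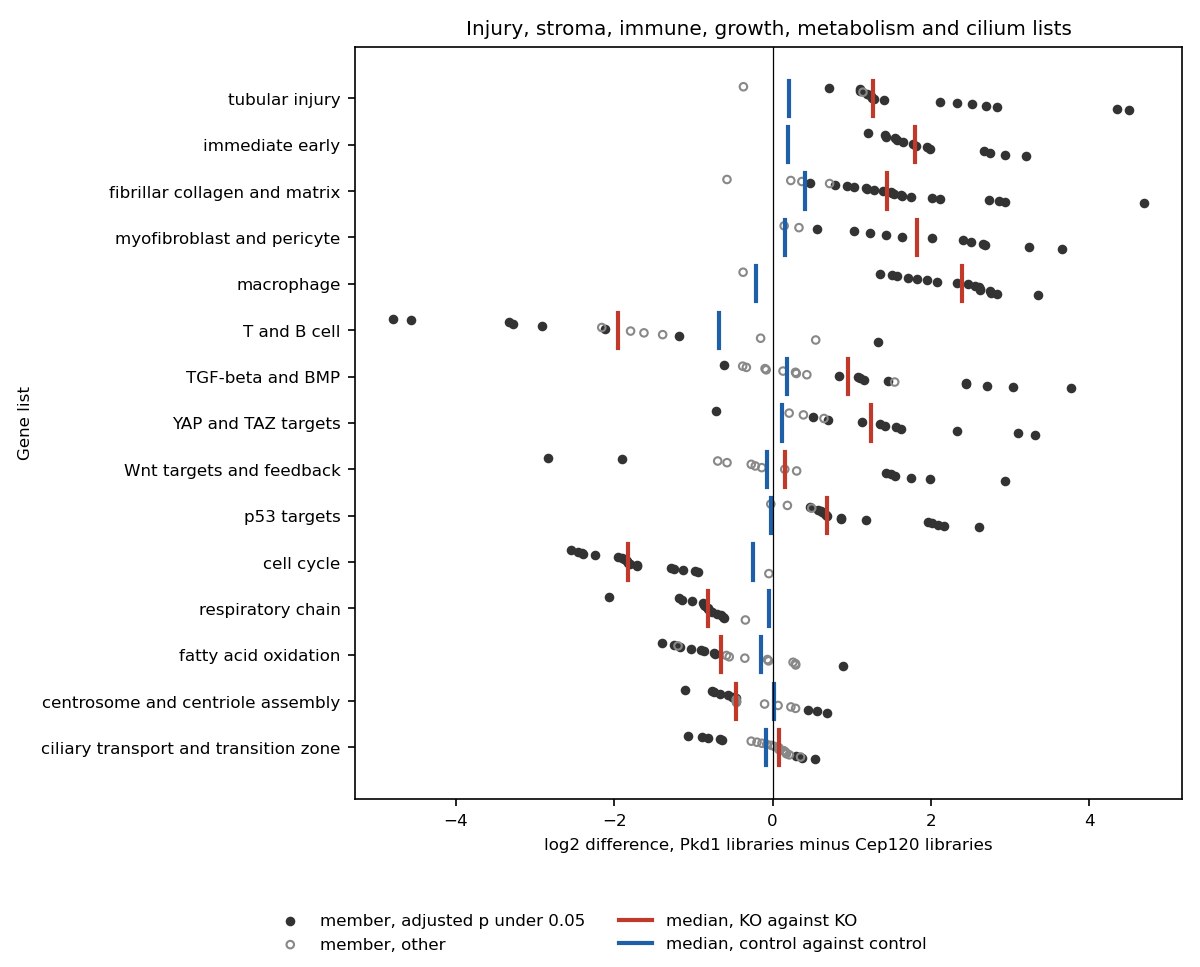
Log2 difference between Pkd1 KO and Cep120 KO for each tested gene of 15 lists of injury, stroma, immune cells, signalling, growth, metabolism, centrosome and cilium (points, filled where called), with the list's median between the knockouts as a red bar and between the controls as a blue bar. The immediate early, myofibroblast and macrophage lists lie above 0 with medians of 1.80, 1.82 and 2.39, and the cell cycle and respiratory chain lists below 0 with medians of -1.83 and -0.82.

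Several secreted ligands of growth pathways were higher in Pkd1 KO. TGF-beta family signals drive matrix production, and of 20 TGF-beta and BMP genes 10 were higher in Pkd1 KO, 1 was lower and 9 were not called (median 0.96). Inhba, which encodes the activin A subunit, was at 55.5, 46.8 and 43.5 CPM in Pkd1 KO and at 4.31, 8.79 and 4.65 CPM in Cep120 KO (3.03). The related subunit gene Inhbb differed by 3.77, and Fst, whose product binds and blocks activin, by 2.45. Tgfb3 was at 77.2, 64.1 and 59.2 CPM against 9.38, 14.3 and 6.92 CPM (2.71) and Tgfb2 at 44.2, 38.4 and 45.5 CPM against 9.96, 24.4 and 12.4 CPM (1.45, adjusted p = 0.00127). Tgfb1 was at 1.29, 0.999 and 0.790 CPM against 1.15, 1.79 and 0.923 CPM and did not pass (-0.33, adjusted p = 0.494). The receptor genes Tgfbr1 (1.15) and Tgfbr2 (0.84) were higher by less than these ligands, and the target gene Id2 (-0.61) was lower.

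YAP and TAZ are transcriptional coactivators that respond to stretch. Of 14 of their target and pathway genes tested 10 were higher in Pkd1 KO and 1 was lower (median 1.24). F3, tissue factor, was at 307, 328 and 277 CPM in Pkd1 KO and at 20.1, 46.7 and 24.4 CPM in Cep120 KO (3.32). Ccn1 was at 245, 226 and 414 CPM against 35, 91.8 and 49.1 CPM (2.33, SE 0.329, adjusted p = 0.000124), and Ankrd1 at 60.3, 43.1 and 65.8 CPM against 3.65, 14.6 and 1.49 CPM (3.09, SE 0.693, adjusted p = 0.00308). None of the 3 overlapped between the knockouts, as was so for 63% of all genes tested. Nt5e was lower (-0.71), and the pathway genes Lats2 (0.21), Tead1 (0.39) and Tead4 (0.65) did not pass the test.

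Wnt targets and feedback inhibitors did not move as 1 group: 6 of 15 were higher, 2 lower and 7 not called (median 0.15). Nkd1, an inhibitor induced by the pathway, was at 24.4, 26.5 and 26 CPM in Pkd1 KO and at 6.54, 8.53 and 7.81 CPM in Cep120 KO (1.75, SE 0.142, adjusted p = 2.31e-06). Axin2, another induced inhibitor, was at 10.7, 11.1 and 7.04 CPM against 3.27, 2.73 and 3.87 CPM (1.54), and the transcription factor genes Tcf7 (1.99) and Lef1 (1.5) were also higher. Notum, a secreted Wnt inhibitor, was lower, at 0.305, 0.0966 and 0.359 CPM against 1.73, 1.5 and 2.24 CPM (-2.83, adjusted p = 0.000461). The target Ccnd1 (-0.22) did not pass.

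In the Hedgehog pathway 4 of 14 genes were higher, 1 lower and 9 not called (median 0.14). The factor gene Gli1, a pathway target, was at 7.21, 5.09 and 5.74 CPM in Pkd1 KO and at 1.39, 2.93 and 1.06 CPM in Cep120 KO (1.74, SE 0.415, adjusted p = 0.00453), and Gli2 differed by 1.69. Another common readout of the pathway, the receptor gene Ptch1, was at 19.2, 19.4 and 16.7 CPM against 21.5, 22.3 and 25.2 CPM and did not pass (-0.32, adjusted p = 0.153). Of 13 Notch genes 3 were higher, among them the ligand genes Jag1 (1.02) and Dll1 (0.81), and none was lower (median 0.08). With the term for the number of genes detected Jag1 was at 0.43 and was not called. The net difference was called for none of the 13.

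Among 11 Egf receptor ligands and receptors tested 6 were higher in Pkd1 KO and 1, Egf itself, was lower. Betacellulin, Btc, was at 68.2, 65.8 and 117 CPM in Pkd1 KO and at 15.6, 33.2 and 17.2 CPM in Cep120 KO (1.92, SE 0.303, adjusted p = 0.000279), and the receptors Erbb3 (1.16) and Egfr (0.53) were higher. Epiregulin, Ereg, differed by 3.68 (adjusted p = 0.0105) but stayed below 1 CPM in every library. Of 16 genes of vasopressin and cyclic AMP signalling, which feeds fluid secretion into cysts, 4 were higher, 3 lower and 9 not called (median 0.18). The chloride channel gene Cftr was lower in Pkd1 KO, at 1.32, 1.48 and 1.87 CPM against 2.31, 5.04 and 2.88 CPM (-1.13, SE 0.318, adjusted p = 0.0109), and the phosphodiesterase gene Pde1a was alike in the values, at 50.7, 49.1 and 60.8 CPM against 48.6, 46.5 and 61.6 CPM (0.04, adjusted p = 0.85).

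Cell cycle genes were lower in Pkd1 KO than in Cep120 KO at 19 of 20, with none higher (median -1.83). Mki67, present in dividing cells, was at 7.28, 5.83 and 11.7 CPM in Pkd1 KO and at 34.4, 51.9 and 49.5 CPM in Cep120 KO (-2.45, SE 0.242, adjusted p = 8.48e-06). Controls were at 37.2 to 46.3 CPM in the Pkd1 line and 38.5 to 53 CPM in the Cep120 line, so Cep120 KO lay close to the controls and Pkd1 KO below all 9 other libraries. Top2a, the topoisomerase that untangles replicated DNA, was at 9.55, 11.8 and 17.7 CPM against 62.8, 83.8 and 80.4 CPM (-2.54, SE 0.202, adjusted p = 1.9e-06). Cyclin B2, Ccnb2, was at 13, 13 and 17 CPM against 55, 56.3 and 55.4 CPM (-1.96, SE 0.147, adjusted p = 1.38e-06), and cyclin B1, Ccnb1, at 14.2, 14.9 and 17.2 CPM against 42.5, 56.1 and 53.8 CPM (-1.72, SE 0.134, adjusted p = 1.75e-06). Their kinase partner Cdk1 was at 17.3, 18.5 and 27.5 CPM against 44.6, 55.2 and 54.2 CPM (-1.28, SE 0.184, adjusted p = 0.000137). The replication clamp gene Pcna alone did not pass (-0.05). As a net difference 17 of the 20 were called lower (median -1.49).

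The promoters of 4 of these genes are shown because the genes were lower together and share a short motif. They are the 250 bases before the gene start in RefSeq's table on GRCm38.p6, each from the minus strand and printed 5′ to 3′, with CCAAT, or its reverse complement ATTGG, in capitals. In Cdk1 the capitals also mark 1 match to TTTNGCGC. Ccnb1 lies at chr13:100786487-100786736 with 2 CCAAT motifs, Ccnb2 at chr9:70421555-70421804 with 3, Top2a at chr11:99024190-99024439 with 6 and Cdk1 at chr10:69352913-69353162 with 3.
Ccnb1: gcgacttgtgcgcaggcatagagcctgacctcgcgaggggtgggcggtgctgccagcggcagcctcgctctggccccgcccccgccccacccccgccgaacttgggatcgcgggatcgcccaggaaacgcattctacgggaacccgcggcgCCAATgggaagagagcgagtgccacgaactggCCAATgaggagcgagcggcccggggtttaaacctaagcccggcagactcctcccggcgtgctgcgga
Ccnb2: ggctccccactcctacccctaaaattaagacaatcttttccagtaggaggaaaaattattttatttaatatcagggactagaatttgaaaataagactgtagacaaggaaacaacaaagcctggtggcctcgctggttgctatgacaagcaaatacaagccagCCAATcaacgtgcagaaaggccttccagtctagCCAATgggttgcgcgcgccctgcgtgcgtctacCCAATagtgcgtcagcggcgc
Top2a: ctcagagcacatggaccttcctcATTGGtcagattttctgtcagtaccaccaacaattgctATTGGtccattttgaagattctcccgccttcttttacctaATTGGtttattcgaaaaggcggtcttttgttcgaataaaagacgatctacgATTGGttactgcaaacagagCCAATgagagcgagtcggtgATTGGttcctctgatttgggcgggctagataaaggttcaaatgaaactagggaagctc
Cdk1: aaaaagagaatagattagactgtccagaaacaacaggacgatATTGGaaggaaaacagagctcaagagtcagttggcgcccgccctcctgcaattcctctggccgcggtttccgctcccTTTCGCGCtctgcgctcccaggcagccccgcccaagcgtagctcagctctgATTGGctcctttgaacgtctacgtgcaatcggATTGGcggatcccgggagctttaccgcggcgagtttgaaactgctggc

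Promoters were found for 17 of the 20 cell cycle genes. CCAAT, the motif bound by NF-Y, was present on either strand in 15 of these 17 promoters (88.2%) and in 33.8% of all 32851 promoters in the table. One of the 15 was Pcna, which was not called. TTTNGCGC, an E2F motif, was present in 2 of the 17 (11.8%), those of Cdk1 and Mcm5, and in 1.13% of all promoters. For comparison, CCAAT was present in 6 of 25 promoters of proximal tubule genes (24%), which were mostly lower. It was in 3 of 14 promoters of the 12 largest falls (21.4%) and 5 of 9 of the 12 largest rises (55.6%). Among mostly higher lists, it was in 7 of 15 promoters of immediate early genes (46.7%) and 5 of 13 of macrophage genes (38.5%). It was also in 6 of 18 of tubular injury genes (33.3%) and 2 of 16 of matrix genes (12.5%). Some genes have more than 1 promoter here. These are counts of letters in a window, not of binding sites.

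Targets of p53, which halt the cell cycle or start cell death after damage, were higher in Pkd1 KO at 15 of 18, with none lower (median 0.68). Cdkn1a, the cyclin-dependent kinase inhibitor p21, was at 200, 196 and 201 CPM in Pkd1 KO and at 54.4, 48 and 38.1 CPM in Cep120 KO, with controls at 44.4 to 64 CPM (2.09, SE 0.141, adjusted p = 7.89e-07). Cep120 KO thus lay at the level of the controls for Cdkn1a. Phlda3, a p53 target that restrains Akt, was at 30.6, 31.8 and 30 CPM against 7.50, 7.78 and 7.56 CPM (2.02, SE 0.19). The values of both genes were tight within each knockout. Other targets higher in Pkd1 KO were the receptor gene Eda2r (2.61), the secreted stress factor gene Gdf15 (2.17) and the cell death genes Pmaip1 (1.97), Bbc3 (1.18) and Bax (0.62). The p53 antagonist gene Mdm2, itself a target, differed by 0.47. As a net difference 7 of the 18 were called higher (median 0.77).

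**Figure D5:**
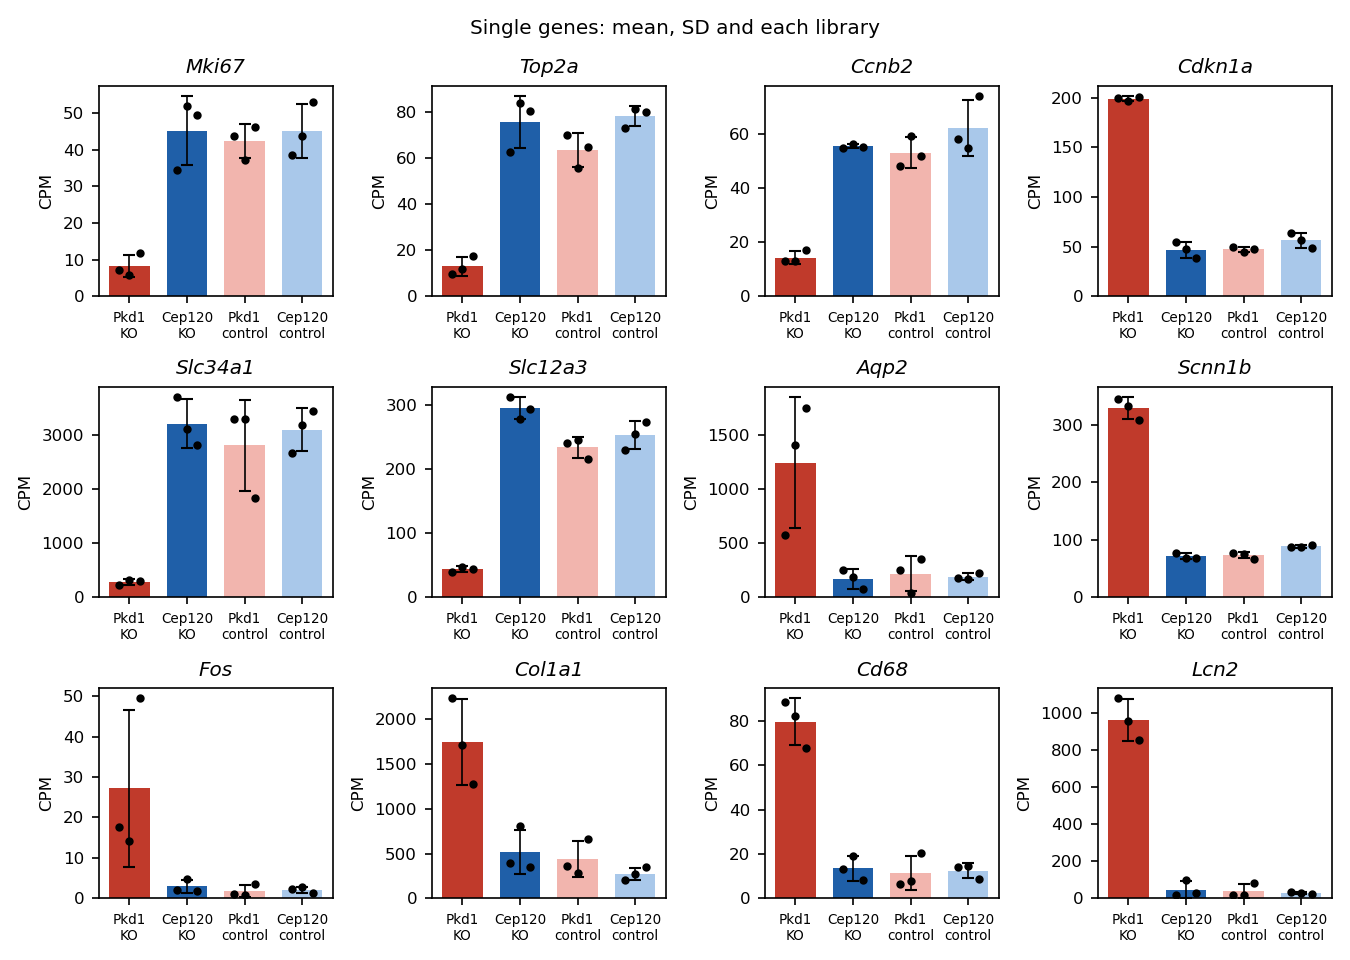
Level in CPM on a linear axis from 0 of 12 single genes of the cell cycle, p53, tubule, collecting duct, immediate early, matrix, macrophage and injury lists, with bars for the mean of the 3 libraries of each group, error bars for the SD and a point for each library. The Pkd1 KO points lie apart from the other groups while Cep120 KO lies near the controls, for example at 38.1 to 54.4 CPM for Cdkn1a against 44.4 to 64 CPM in the controls.

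Genes of mitochondrial energy production were lower in Pkd1 KO. Of 16 nuclear genes of the respiratory chain 15 were lower and none higher (median -0.82, and -1.31 with the term for the number of genes detected). Ndufs1, a subunit of complex I, was at 100, 108 and 126 CPM in Pkd1 KO and at 231, 236 and 292 CPM in Cep120 KO (-1.18, SE 0.184). The ATP synthase subunit gene Atp5a1 was at 1184, 1381 and 1383 CPM against 2566, 2076 and 2320 CPM (-0.82, adjusted p = 0.002). Ppargc1a, a coactivator of mitochondrial genes, was at 45, 53.9 and 42.7 CPM against 154, 92.1 and 126 CPM (-1.40). Of 18 fatty acid oxidation genes 8 were lower, 1 higher and 9 not called (median -0.66): Acadm was at 193, 195 and 231 CPM against 496, 378 and 516 CPM (-1.17, SE 0.161, adjusted p = 0.000102), while the entry enzyme gene Cpt1a was at 192, 209 and 175 CPM against 217, 185 and 195 CPM and did not pass (-0.05). Of 16 glycolysis genes 5 were lower, 3 higher and 8 not called (median -0.14). Hexokinase 2, Hk2 (1.23), the lactate carrier Slc16a3 (0.98) and the glucose carrier Slc2a1 (0.72) were higher, and enzymes of the lower pathway such as Eno1 (-0.77) and Tpi1 (-0.74) were lower. As a net difference 4 of the 16 were called higher and none lower (median 0.23), and the median was -0.31 between the controls and -0.47 for Cep120 KO against its controls. Proximal tubule cells are rich in mitochondria, and the part of the proximal tubule genes in these values was not tested. Transcripts of the mitochondrial genome made up 3.14% to 3.47% of counts in Pkd1 KO and 4.78% to 7.60% in Cep120 KO.

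Genes of the cilium and the centrosome, the structures in which the deleted genes act, were called in both directions and by smaller log2 differences. Of 23 genes of ciliary transport and the transition zone 3 were higher, 5 lower and 15 not called (median 0.08). Bbs1, part of the complex that carries membrane proteins out of cilia, was lower (-1.06, SE 0.201, adjusted p = 0.00101), and the transport gene Ift88 was at 16.9, 20 and 16.4 CPM in Pkd1 KO and at 14.5, 18.3 and 17.6 CPM in Cep120 KO (0.08, adjusted p = 0.659). Of 17 centrosome and centriole assembly genes 8 were lower, 3 higher and 6 not called (median -0.46). Stil, which starts a new centriole, was at 2.57, 1.93 and 3.27 CPM against 5.23, 6.83 and 4.58 CPM (-1.10, SE 0.277, adjusted p = 0.00606), and its partner Plk4 differed by -0.67 (adjusted p = 0.0272). Without both replicate 3 controls Stil differed by -1.12 between the controls (adjusted p = 0.0772, edgeR). Its interaction value was then 0.02 and was not called. With the term for the number of genes detected Stil was at -0.57 and was not called, none of the 17 was lower and 2 were higher (median -0.11), and the net difference was called for 1 gene, Odf2. The cell cycle also governs several of these genes, and its part was not tested.

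Of 20 genes mutated in cystic kidney disease 6 were higher, 4 lower and 10 not called (median 0.15). This is close to the 49.7% called among all genes tested, so the count sets the list apart from no other genes. Glis2, a transcription factor gene of nephronophthisis, was at 132, 126 and 141 CPM in Pkd1 KO and at 75.8, 74.9 and 82.7 CPM in Cep120 KO (0.77, SE 0.0938, adjusted p = 3.92e-05). The ciliary kinase gene Nek8 was at 24.1, 25.3 and 27 CPM against 16.5, 12.9 and 14.4 CPM (0.80). Inversin, Invs (-1.07), Cep290 (-0.59) and Tmem67 (-0.53) were lower, beside Umod. The partner of polycystin-1, Pkd2, was at 54.6, 49.2 and 43.4 CPM against 49, 41.3 and 44.6 CPM (0.12, adjusted p = 0.381), and fibrocystin, Pkhd1, the gene of the recessive disease, differed by -0.33 (adjusted p = 0.134). Neither passed the test.

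Vessel, blood and hormone genes were mostly lower in Pkd1 KO. Of 13 endothelial genes 10 were lower and none higher (median -0.72): the angiopoietin receptor gene Tek was at 18.8, 19.9 and 30.6 CPM in Pkd1 KO and at 63.4, 53.5 and 57.9 CPM in Cep120 KO (-1.33), and Pecam1, present in all endothelium, at 83.7, 72.5 and 89.5 CPM against 106, 106 and 123 CPM (-0.44, adjusted p = 0.0105). Of 9 red blood cell genes tested 6 were lower and none higher, and their summed level was 583 to 1542 CPM in Pkd1 KO and 5589 to 8098 CPM in Cep120 KO. Hba-a1, an alpha globin gene with a near-identical copy, was at 215, 151 and 324 CPM against 1654, 1327 and 1753 CPM (-2.78). Of 11 genes of the renin-angiotensin system 6 were lower, 2 higher and 3 not called (median -0.66). The converting enzyme gene Ace was at 20.6, 30.4 and 34.6 CPM against 184, 120 and 130 CPM (-2.34), and the receptor gene Agtr2 at 24, 30.5 and 43.1 CPM against 3.08, 0.944 and 2.70 CPM (3.87). Renin, Ren1, overlapped, at 259, 371 and 564 CPM against 767, 351 and 766 CPM (-0.66, adjusted p = 0.12).

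Genes of tissue around the kidney varied widely among libraries of the same group. The summed level of 11 adipose genes was 1476, 280 and 788 CPM in Pkd1 KO and 401, 248 and 778 CPM in Cep120 KO, and the adipokine gene Adipoq was at 55.5, 0 and 29 CPM against 0, 0.0326 and 12.4 CPM. Of these genes 4 were higher and none lower, among them Lep, at 11.4, 6.86 and 15.4 CPM against 0.692, 1.33 and 0.568 CPM (3.68). All 4 adrenal genes tested were higher (median 6.51), but without Pkd1 KO 3 the median was 1.18 and 2 were called. Of 5 skeletal muscle genes tested 1 was higher.

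At a minority of genes Cep120 KO lay further from its controls than Pkd1 KO did. Of 83 genes called between the knockouts and in the net difference whose Cep120 side was the larger and opposite one, 4 in each direction with the largest Cep120 side are given. Procr, the endothelial protein C receptor, was at 14.6, 12.5 and 18.6 CPM in Pkd1 KO, 3.92, 4.10 and 5.22 CPM in Cep120 KO, 11.9, 12.6 and 7.03 CPM in Pkd1 controls and 7.47, 10.1 and 11.2 CPM in Cep120 controls. Cep120 KO lay below every control for Procr, with a log2 change of -1.12 against its controls (adjusted p = 0.757) beside 0.54 for Pkd1 KO (adjusted p = 0.079), and the knockouts differed by 1.79. Fn3krp, a kinase that repairs glycated proteins, was at 8.67, 11.3 and 10.4 CPM in Pkd1 KO and at 30.5, 49.9 and 55.9 CPM in Cep120 KO, with controls from 4.57 to 36.8 CPM (-2.17). Zfp429, a zinc finger gene with close relatives, was at 10.9, 12.2 and 6.64 CPM against 2.77, 0.618 and 0.923 CPM (2.80). The other higher genes were Aldh1a7 (1.27), a close relative of Aldh1a1, and the amine oxidase gene Aoc3 (1.20), and the other lower ones its neighbour Aoc2 (-2.25), Insyn2a (-2.01) and the myosin light chain gene Myl4 (-1.67). With the term for the number of genes detected Procr and Aoc3 were called and the other 6 were not. Without both replicate 3 controls the net difference was not called for Zfp429, Fn3krp, Aldh1a7 and Aoc3 (adjusted p = 0.0742, 0.0708, 0.116 and 0.0526, edgeR). None of the 8 was called on the Cep120 side, and another gene overlaps Myl4 and Zfp429 in the annotation.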

How the data were processed

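Total RNA of ground whole kidneys was made into cDNA with a low-input SMARTer kit and sequenced, per the labels' protocols. Tools listed in the submitters' processing notes are Salmon 0.8.2, STAR 2.5.1a, featureCounts 1.4.6-p5 of Subread and bcl2fastq, on mm9, and the role of each was not stated. The table used holds estimated counts per gene as deposited by the authors, not whole for 21.6% of genes. The authors also deposited log2 CPM values, used only as an alternative. No source used here gives the strand setting of the counting. Samples were grouped by title and genotype label.

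Of 55774 lines, 287 repeated a gene ID and were dropped, leaving 55487, and counts were rounded. After edgeR's filter by group, 19890 genes were fitted with TMM scaling in 1 quasi-likelihood model of 4 groups over 12 libraries (R 4.3.3, edgeR 4.0.16, two-sided, Benjamini-Hochberg adjusted p under 0.05, common biological coefficient of variation 0.238). A log2 difference is the fitted value of this model. The prior count of 2 was used for log2 CPM levels alone, so large differences at low counts are little shrunken. CPM uses TMM-scaled library sizes. DESeq2 1.42.0 and limma 3.58.1 were alternatives, and the script was tested on simulated counts. The term for the number of genes detected splits libraries at 28000 genes. Depth was similar across libraries, and values with few counts are the least precise.

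The compared libraries and the 40 gene lists were chosen with earlier results of these data known. Genes were named by rule: the 12 largest differences each way among called genes without overlap whose mean log2 CPM was 1 or more, the 4 each way with the largest opposite Cep120 side, as many as 4 genes per list in order of p, the deleted genes and Xist. A rule for genes called in both the knockout and the control comparison named none. List members beyond these 4, and genes under other observations, were named after their values were seen. Promoter sequences were read from RefSeq's table and not from mm9, which was not used here.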

Additional observations from a re-analysis of the deposited data

Results flagged for a closer look

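The difference between the Pkd1 change and the Cep120 change was called at 5598 genes by its own test (the interaction term of the edgeR fit). Among the 32 genes named as the largest differences or for their Cep120 side, the values of the 30 that were called are given below. The 8 Cep120-side genes were chosen for that call and the other 24 on a difference that the interaction contains, so the number called is no result. All groups had 3 libraries, too few for the check of single outlying samples.

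In the higher direction the interaction log2 values were 6.85 for Hp, 6.05 for Fcgbp, 5.86 for Adh7, 5.2 for Il18r1, 4.97 for Krt20, 4.76 for Actg2, 4.39 for Msln, 4.34 for Igfbp6, 4.08 for Ahnak2, 3.94 for Cep85 and 3.87 for Col12a1. For the genes with the larger Cep120 side they were 2.53 for Zfp429, 1.66 for Procr, 1.37 for Aldh1a7 and 1.21 for Aoc3.

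In the lower direction the values were -8.04 for Pvalb, -6.38 for Slc34a3, -5.76 for Slc22a7, -5.51 for Slc22a30, -5.42 for Egf, -5.31 for Ldc1, -5.22 for Chrna4, -4.94 for Aspdh, -4.83 for Slc22a22, -4.66 for Slc51a and -4.50 for Proz. For the genes with the larger Cep120 side they were -2.62 for Aoc2, -2.44 for Fn3krp, -2.08 for Insyn2a and -2.08 for Myl4.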

How the results depend on the processing

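The count of genes called between the knockouts stayed within 1.5 times of 9890 under other scalings, DESeq2, limma voom, other filters and single covariate terms. It ranged from 6648 of 12543 genes tested (53%) with a filter of 5 CPM in 3 libraries to 11773 of 42153 (27.9%) without a filter. The share called, 49.7% in the main fit, thus changed with the filter. From the 6 KO libraries alone the count was 9897. It was 6363 at an adjusted p under 0.01, 2578 against a 2-fold minimum effect and 6327 with terms for Xist and the number of genes detected together. The lower genes numbered 3416 with the 5 CPM filter, 3224 at 0.01, 1726 at 2-fold (852 higher), 3475 with the term for the number of genes detected and 3092 with both terms. Upper quartile scaling moved the median of all genes from -0.04 to -0.16 and split the calls into 3694 higher and 6112 lower. The interaction count was 2751 at 0.01 and 1004 at 2-fold. Between the controls the count was 0, but 248 without a filter, 1 with the term for the number of genes detected and 416 without both replicate 3 controls.

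Leaving out 1 library at a time gave 8170 to 10523 genes called, 3726 to 4787 higher, 4396 to 5736 lower, 4267 to 5818 for the interaction and 0 to 4 between the controls. With the replicate number as a block 8847 genes were called between the knockouts and 4363 for the interaction. The deviations of same-numbered KO libraries from their group means had correlations of -0.109, 0.04 and 0.0854, and those of same-numbered controls -0.432, -0.215 and -0.599. With 3 libraries per group these values cannot show whether libraries of the same number were processed together.

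Of 176 named genes called, 145 were called in every setting compared gene by gene. The term for the number of genes detected lost 22 and the term for Xist 2. These settings did not include the other filters, the adjusted p under 0.01, the 2-fold minimum effect or the fit without both replicate 3 controls. Reversed values were Myl1, 0.50 with the Xist term and -1.54 to 0.49 with 1 library left out, and Cyp11a1, -0.34 to 8.16 with 1 library left out, lowest without Pkd1 KO 3. The causes were not tested. The median changed sign in some setting for 9 lists: podocyte, urothelium, cilium, interferon, Hedgehog, Notch, glycolysis, T and B cell, and sex-linked.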

Other observations

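The genes in these paragraphs were chosen after their values were seen. Epo, which encodes the kidney hormone that drives red blood cell production, had 0 counts in all 3 Pkd1 KO libraries and 220 in Cep120 KO, where it was at 7.15, 0.195 and 0.994 CPM. Epo was called lower in Pkd1 KO (adjusted p = 0.00319, edgeR). With counts pooled over each group and a floor of 3 counts in Pkd1 KO, it was 78.6-fold lower there. Without Cep120 KO 1, the highest library, it was 17.8-fold lower. These ratios leave out the spread between libraries, so they are no lower bound on the difference. Its controls were at 2.25, 2.36 and 1.97 CPM in the Pkd1 line and 8.23, 7.73 and 1.99 CPM in the Cep120 line, and the interaction had an adjusted p of 0.0378. Vsig4, a complement receptor of resident macrophages, showed the reverse, at 6.30, 1.45 and 2.98 CPM in Pkd1 KO and 0 counts in Cep120 KO (adjusted p = 0.000253, interaction 0.051). Slpi, a secreted protease inhibitor of epithelia, was at 119, 65.9 and 49.4 CPM against 0.577, 0.0325 and 0.497 CPM (log2 difference 7.75, SE 0.574, adjusted p = 1.28e-06). Sh3bgrl3, a neighbour of Cep85 on the same strand, was also higher in Pkd1 KO, at 452, 435 and 370 CPM against 139, 141 and 121 CPM (1.65, SE 0.119, adjusted p = 1.16e-06), and whether reads of the neighbours were shared was not tested.

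A set of low-level genes lay apart from the rest. For 404 genes the difference was called and below -6 on the log2 scale, and 226 of them were not protein-coding. In Pkd1 KO 1 to 3 there were 389, 382 and 394 of these genes at 0 counts, and in Cep120 KO 1, 2 and 4. These zeros follow from how the genes were chosen. The controls had 272, 130 and 5 at 0 in the Pkd1 line and 2, 10 and 136 in the Cep120 line. The 3 controls with fewer than 28000 genes detected thus had 130 or more of these genes at 0, and the other 3 had 10 or fewer. Among the KO libraries the number of genes detected and the knockout cannot be told apart.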
